A study of Schmidtea mediterranea with 9 samples.

Results

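The 100 most abundant transcripts of sorted planarian neoblasts are described here. They are the most abundant component of the assembly, comp0_c0, and the 99 others with the highest mean level over all 9 libraries, out of 46724 components. A component is a set of contigs that the assembler grouped, roughly a gene. Members were chosen by their mean CPM, the reads scaled to 1e+06 mapped reads of a library without comp0_c0, so the levels and ranks below describe the choice and were not tested. The choice did not use differences between groups or the spread between replicates.

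Neoblasts are the dividing stem cells of Schmidtea mediterranea, a freshwater flatworm that regrows missing parts, and they supply the new cells of all its tissues. The cells came from the asexual strain and from the body region in front of the pharynx. They were sorted by flow cytometry after Hoechst and propidium iodide staining, as live cells above the diploid DNA content (the X1 gate). There were 3 groups of 3 libraries of poly(A) RNA: uninjured animals at 0 h (control), animals 48 h after loss of the head (anterior wound), and animals 48 h after loss of the tail and pharynx (posterior wound). All animals had been starved for over a week. Uninjured animals at 48 h were not analysed here, and against the control a wound and the elapsed time cannot be told apart.

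In dividing animal cells the top of the poly(A) transcript ranking is usually held by genes for ribosomal proteins, translation factors, cytoskeletal proteins and energy metabolism, together with transcripts of the mitochondrial genome. Messages for ribosomal proteins are typically short. Neoblasts add RNA-binding proteins of the PIWI and related families. The files used here do not pair components with gene names or sequences, so no member is assigned to any of these classes, and neoblast markers could not be checked.

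Mapped reads per library ranged from 14674800 (control replicate 1) to 23700877 (control replicate 3). Unmapped reads were 11.4% of control replicate 1 and between 3.96% and 5.46% of the others. Control replicate 1 and posterior replicates 2 and 3 stood apart from the rest of their groups at many members, as described below. Whether replicates came from separate animals is not in the labels, and p-values therefore cover the spread between libraries, which may be technical.

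The 100 members held between 36.0% and 42.9% of the mapped reads of a library, with a mean of 40.3%. In the controls they held 36.3%, 40.9% and 42.4% of the reads of replicates 1 to 3. In the anterior libraries the shares were 41.0%, 42.0% and 42.4%, and in the posterior libraries 38.4%, 36.0% and 42.9%. The 3 ranges overlap, and the anterior libraries lay closest together (41.8% ± 0.72, SD, n = 3, against 39.9% ± 3.17 in the controls and 39.1% ± 3.49 after the posterior wound, SD, n = 3 each). The 95% Wilson interval of a share was at most 0.049 percentage points wide and covers counting error only.

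Over all libraries together, comp0_c0 alone took 14.6% of the mapped reads and the first 11 members 22.1%. The first 50 took 33.1%. The other 99 without comp0_c0 held between 26.9% (posterior replicate 2) and 31.5% (posterior replicate 3) of the reads left after it, a smaller relative range than that of comp0_c0.

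**Figure D1:**
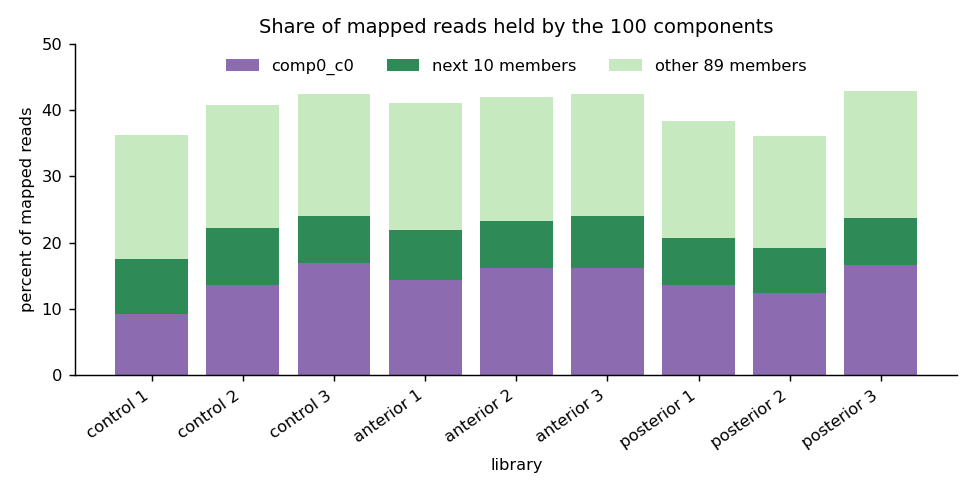
Percent of mapped reads (y axis) in each library (x axis), stacked as comp0_c0, the next 10 members and the other 89. The total lies between 36.0% and 42.9%, and the comp0_c0 block varies most, from 9.19% in control replicate 1 to 16.9% in control replicate 3.

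The component comp0_c0 is a single contig of 944 bases. Its share of mapped reads was 9.19%, 13.7% and 16.9% in control replicates 1 to 3, 14.3%, 16.2% and 16.1% in the anterior libraries, and 13.7%, 12.5% and 16.6% in the posterior ones. The control libraries span the wounded ones on both sides. Relative to the other 99 members it stood at 33.9, 50.3 and 66.5 reads per 100 of theirs in the controls. The wounded libraries lay between 52.8 and 63.1. By edgeR's quasi-likelihood test the anterior log2 fold change was 0.28 (SE 0.30, adjusted p = 0.964) and the posterior one 0.09 (SE 0.30, adjusted p = 0.947). The second of these turned to -0.13 without control replicate 1 and to -0.16 without posterior replicate 3, and it was 0.34 without control replicate 3. The authors' deposited table gives folds of 1.24 and 1.05 for this component, with an adjusted p of 1 for both wounds.

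Below comp0_c0 the levels fell steeply and then slowly. On the CPM scale comp0_c0 stood 7.09 times above the next member, comp4_c0, which stood 2.00 times above the one after it, and comp4_c0 stood 17.5 times above the member at rank 100. The last members were comp436_c0 and comp237_c0, with means of 1375 and 1358 CPM. The components just outside were comp123_c0 and comp93_c0, with means of 1356 and 1352 CPM. The border thus runs through components of nearly the same level.

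**Figure D2:**
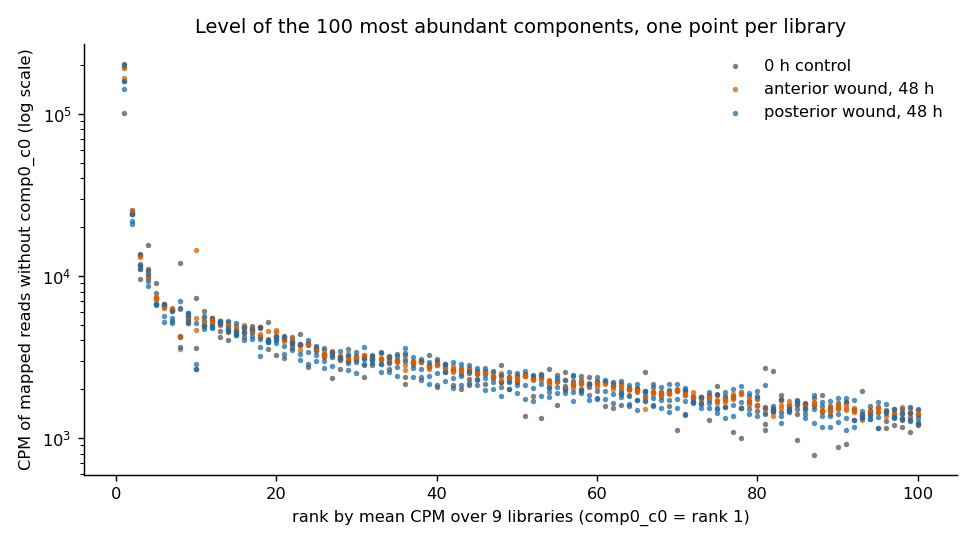
CPM of the mapped reads without comp0_c0 (y axis, log scale) against rank by mean CPM (x axis), with 1 point per library, coloured by group. Points of a member mostly lie close together; the wide columns at ranks 8 and 10 are comp133_c0 and comp2_c0.

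The component comp4_c0, of 2 contigs with the longer at 1522 bases, ranked second in every library. It stood at 25309, 24395 and 24102 CPM in the controls (replicates 1 to 3, as in all lists below), at 24054, 25004 and 24248 CPM in the anterior libraries, and at 21716, 20769 and 24215 CPM in the posterior libraries. Posterior replicates 1 and 2 were the lowest, and posterior replicate 3 lay among the other libraries.

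The component comp13_c0 (2358 bases) was lowest in control replicate 1, at 9550.5 CPM, and highest in control replicate 3, at 13557 CPM. The component comp7_c0 (2180 bases) did the reverse: it was highest in control replicate 1, at 15443 CPM, and stood at 10973 and 10679 CPM in the other controls. Wounded libraries held between 8665 and 10277 CPM of it, below every control on this scale. On the scale of the edgeR test its posterior libraries overlapped the controls, as given below. In control replicate 1 comp7_c0 thus lay above comp13_c0, the reverse of the order in the other libraries.

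The component comp42_c0 (2679 bases) stood at 9084, 7792 and 7355 CPM in the controls and at 7105, 7342 and 7398 CPM in the anterior libraries. The posterior libraries, at 6620.1, 6665 and 6711 CPM, lay below all others. On the scale of the edgeR test, the trimmed mean of M values (TMM), posterior replicate 3 (6268 CPM) lay above control replicate 3 (6240 CPM). The component comp15_c0 (1093 bases) was the steadiest member by the median of its within-group spreads. It stood at 6679, 6502 and 6578 CPM in the controls, at 6529, 6441 and 6364 CPM in the anterior libraries, and at 5677, 5163 and 6686 CPM in the posterior libraries.

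The component comp37_c0 (1366 bases) ranged from 5156 to 6334 CPM and comp129_c0 (1898 bases) from 5093 to 5936 CPM. Between them in rank lay comp133_c0, of 4 contigs, with 11961 CPM in control replicate 2 against 4209 and 4275 CPM in the other controls. It stood at 6250.3, 4198 and 3556 CPM in the anterior libraries and at 7039, 6309.7 and 3625 CPM in the posterior libraries. Its groups overlap fully, and control replicate 2 sets the control mean.

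The component comp2_c0, a single contig of 7857 bases and the longest member, varied most. It stood at 3604, 7308 and 2672 CPM in the controls, at 5499.5, 4618 and 14427 CPM in the anterior libraries, and at 2853, 2667 and 5121 CPM in the posterior libraries. Anterior replicate 3 held 5.41 times as much as posterior replicate 2. Its rank ran from 3 to 42 over the libraries.

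Members were not long. The longest contig of a member had a median of 865 bases, with quartiles at 687 and 1494 bases, and ranged from 468 bases (comp95_c0) to 7857 bases (comp2_c0). Under 1000 bases lay 60 of the 100, against 211 of the 900 components next in rank (23.4%), whose median was 1694 bases. Over all 21322 components tested, 61.3% lay under 1000 bases. Read counts grow with transcript length, so levels are compared between members per kilobase next.

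Per kilobase of contig, comp0_c0 was again first, at 178318 CPM per kilobase, and comp4_c0 second, at 15634 CPM per kilobase. Next came comp32_c0, of 6 contigs, at 9811 CPM per kilobase and comp21_c0, of 13 contigs, at 6896 CPM per kilobase. For such members the value depends on how their reads are divided by length: over the longest contig alone it was 6659 CPM per kilobase for comp32_c0 and 3693 CPM per kilobase for comp21_c0. The long comp2_c0 went from rank 10 by reads to rank 196 per kilobase, at 689.7 CPM per kilobase. The lowest member on this scale was comp403_c0 (3095 bases), at 519.8 CPM per kilobase. Of the 100 members, 74 were also among the 100 highest per kilobase.

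Membership was shared widely but not fully between libraries. In each library between 89 and 98 members were among its own 100 highest, and 77 were so in all 9 libraries. The deepest fall was that of comp88_c0 (504 bases), at rank 180 in control replicate 1, where it stood at 783 CPM against 1602 and 1761 CPM in the other controls. Ranking by the anterior libraries alone kept 99 members, by the posterior libraries 98 and by the controls 95.

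Over the 9 libraries the highest level of a member was 1.41 times its lowest at the median. For 23 of the 99 members other than comp0_c0 this ratio was over 1.5, and for 6 of them over 2. Single members were counted deeply. Counting alone gives a coefficient of variation (CV) of 0.51% for the median member and library and at most 0.98%. The median within-group CV of the members was 10.6% in the controls, 3.05% in the anterior group and 12.4% in the posterior group. The group medians lay above this counting error, but the tightest members did not: the lowest CV of a member in the anterior group was 0.29%. Among the 900 next in rank these medians were 12.4%, 4.95% and 9.43%. Over all components tested with a read in every library they were 26.3%, 15.6% and 21.9%.

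The anterior libraries were the tightest of the 3 groups for 82 of the 100 members, and the widest for 3 of them. Among the 900 next in rank the anterior group was the tightest for 66.6% of components and the widest for 6.89%. Taking for each member the median over its 3 groups, the CV had a median of 8.28%, beside 7.87% among the 900 next in rank and 21.4% over all components tested. The members' median lay close to that of the components next in rank.

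**Figure D3:**
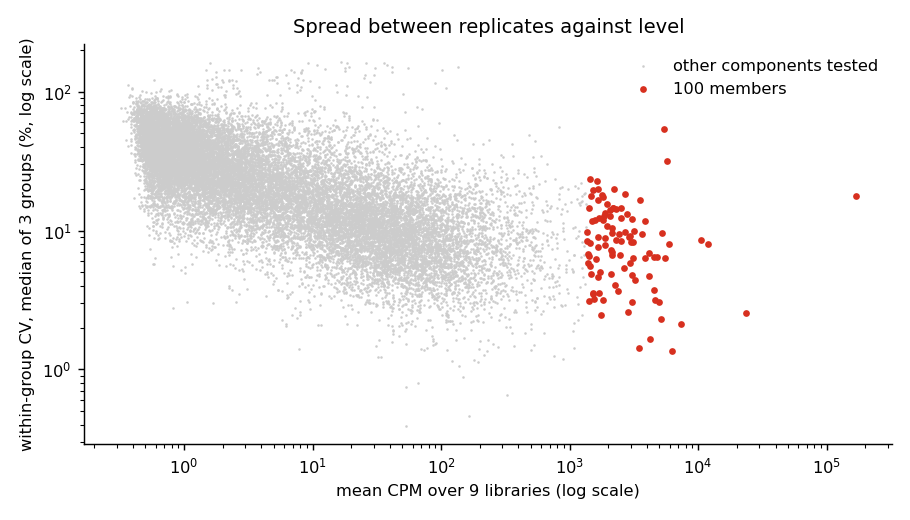
Within-group CV, as the median of the 3 groups (y axis, log scale), against mean CPM (x axis, log scale), 1 point per component; members are red. The members' quartiles are 4.87% and 12.5%, and comp2_c0 (54.2%) and comp133_c0 (31.8%) stand above the rest.

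The 3 steadiest members were comp15_c0, comp83_c1 and comp184_c0, with median within-group CVs of 1.35%, 1.43% and 1.66%. The component comp83_c1 (1050 bases) stood at 3522, 3555 and 3460.4 CPM in the controls, at 3663, 3603 and 3560.0 CPM in the anterior libraries, and at 3256, 2986 and 3688 CPM in the posterior libraries. Even these members were spread over the posterior libraries, where replicate 2 was the lowest of the 3 and replicate 3 the highest. The 3 most variable members were comp2_c0, comp133_c0 and comp92_c0. The last (615 bases, CV 23.7%) stood at 923, 1661 and 1669 CPM in the controls, at 1479.8, 1596 and 1529 CPM in the anterior libraries, and at 1321, 1115 and 1764 CPM in the posterior libraries. It was low in control replicate 1 and posterior replicate 2.

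That pattern was common among short members. A split of the other 99 at 1000 bases, chosen after the values were seen, gave 59 short and 40 long members. The short members had a median log2 difference of -0.24 from their own mean over the libraries in posterior replicate 2 and of 0.17 in posterior replicate 3. In control replicate 1 it was -0.14, and in the other 6 libraries it lay between -0.07 and 0.08. For the long members the medians were -0.11 in posterior replicate 2, -0.01 in posterior replicate 3 and 0.09 in control replicate 1. The sizes depended on the scaling. On the TMM scale the short members were at -0.40 in posterior replicate 2 and 0.29 in posterior replicate 3, and the long members at -0.27 and 0.11, so the long members' sign in posterior replicate 3 turned.

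Posterior replicate 3 lay above posterior replicate 2 at 58 of the 59 short members and at 26 of the 40 long ones. The median ratio was 1.34 for the short and 1.07 for the long. Among the 900 next in rank the same held for 85.8% of the components under 1000 bases, with a median ratio of 1.28, and for 33.5% of the longer ones, with a median ratio of 0.91. On the TMM scale the longer of these components had medians of -0.06 in posterior replicate 2 and 0.07 in posterior replicate 3, the reverse direction, and the shorter ones of -0.30 and 0.31. On both scales the short components thus differed more between these libraries than the long ones, among the members and among the 900. By CPM, posterior replicate 2 was the lowest of all 9 libraries at 48 of the 99, beside 18.7% of the 900, and posterior replicate 3 the highest at 49, beside 18.4%. Only 23.4% of the 900 were under 1000 bases, and their shares were not split by length. Among the members, posterior replicate 2 was lowest at 32 short and 16 long ones. Posterior replicate 3 was highest at 43 short and 6 long ones.

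Control replicate 1 was divided against the other controls. It lay below their mean at 37 of the 59 short members and above it at 22, with a median log2 difference of -0.20. At the 40 long members it lay below at 18 and above at 22. Among the 900 next in rank it lay below at 138 of the 211 components under 1000 bases, with a median log2 difference of -0.13. Of the 689 longer ones it lay below at 226, with a median of 0.16. It was the lowest of the 9 libraries at 28 of the 99 (28.3%) and the highest at 26 (26.3%), beside 26.6% and 37.4% of the 900 next in rank. The component comp88_c0, named above, was furthest below, at a log2 difference of -1.10. The component comp8_c0 (708 bases) was furthest above, at 1.22, with 2714 CPM in control replicate 1 and 1126 and 1212 CPM in the others. This library had the fewest mapped reads, the highest unmapped share and the lowest comp0_c0 share. The part of these properties in the members' levels was not tested.

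**Figure D4:**
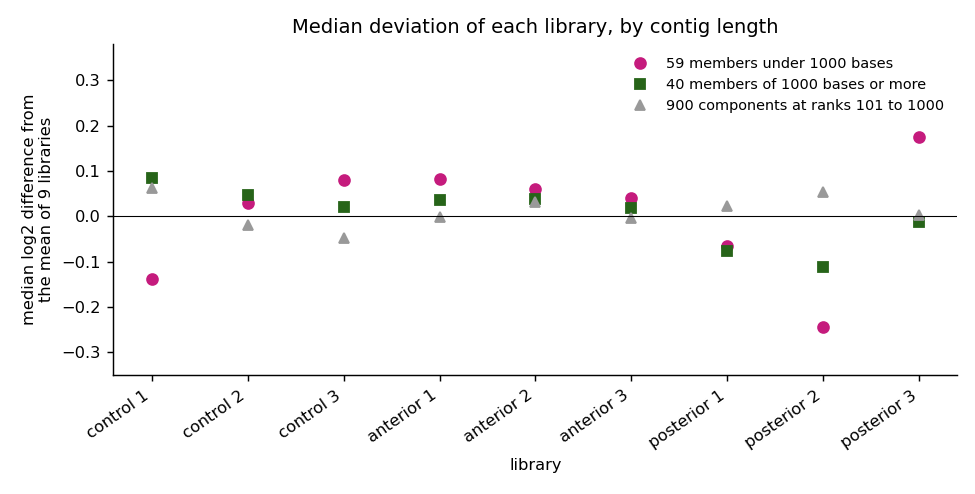
Median log2 difference from the mean of the 9 libraries (y axis, CPM without comp0_c0) in each library (x axis) for 59 short members (circles), 40 long members (squares) and the 900 components next in rank (triangles). Short members lie lowest in posterior replicate 2 (-0.24) and control replicate 1 (-0.14) and highest in posterior replicate 3 (0.17).

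The assembler number joins 1 pair of members, comp83_c0 (513 bases) and comp83_c1 (1050 bases), named here after their values were seen. Reads of comp83_c0 were 31.0% of those of comp83_c1 in control replicate 1, and elsewhere the percentage lay between 45.6% and 54.5%. Within control replicate 1, then, comp83_c1 was at the level of the other controls while comp83_c0 was at 1092 CPM against 1795 and 1813 CPM.

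Several contigs were found in 14 members and 1 contig in the other 86. Several contigs were more common over all components tested (29.1%). In comp4_c0 the main contig held between 51.4% and 51.8% of the component's reads in every library. The 13 contigs of comp21_c0 left its main contig 21.6% on average, with a range over the libraries from 20.4% to 22.4%. The main contig of comp32_c0, of 578 bases, held 45.1% in control replicate 1, with the other libraries between 37.2% and 39.6%. The largest range was in comp133_c0, from 54.8% in control replicate 1 to 63.0% in control replicate 2. The sources used here do not say how a read that fits several contigs was placed, so these shares are uncertain where contigs resemble each other; the summed levels are less so.

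The comparison of wounded animals with the control asks which of these transcripts changed in neoblasts of the same body region. No member passed the test after either wound. All 100 passed the filter on low counts and were fitted with the whole table of 21322 components, so levels in this comparison are on the TMM scale, also in CPM. Calls are those of edgeR's quasi-likelihood test at an adjusted p of 0.05 (Benjamini-Hochberg, over all 21322). In bulk RNA, fewer cells that hold a transcript and less of it per cell cannot be told apart.

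After the anterior wound 0 members rose and 0 fell, where 0.0281% of all components were called. At an unadjusted p under 0.05 there was 1 member, higher, where 3.84% of all components passed. DESeq2, run without the filter on low counts, called 0 members, where 0.0535% of all components in its fit were called. It had 0 members at an unadjusted p under 0.05, where 1.91% of all components in that fit passed. Its shares are over unfiltered components and do not compare directly with those of edgeR. The limma-voom fit, on filtered components, also called 0 (0.0281% of all), with 6 at an unadjusted p under 0.05 (3.49%). The smallest adjusted p of a member was 0.964. The members' log2 fold changes had a median of 0.07 and lay from -0.52 to 0.87, with 85 of 100 within 0.25 of zero. The median over all components tested was -0.03. The fold change was above zero for 73 members and below for 27, but with no scaling beyond library totals these numbers were 51 and 49, and with upper quartile scaling 63 and 37. Short members had a median of 0.10 and long ones of 0.02.

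The highest values after the anterior wound were those of comp2_c0 and comp322_c0. For comp2_c0 the log2 fold change was 0.87 (SE 0.50, adjusted p = 0.964 by edgeR), and it was 0.20 without anterior replicate 3 and 1.41 without control replicate 2. The component comp322_c0 (1279 bases) stood on the TMM scale at 845, 1218 and 1287 CPM in the controls and at 1458, 1456 and 1396 CPM in the anterior libraries. The groups did not overlap, and the anterior log2 fold change was 0.36 (SE 0.17, adjusted p = 0.964 by edgeR). Control replicate 1 was the lowest control.

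The lowest values were those of comp133_c0 and comp187_c0. For comp133_c0 the log2 fold change was -0.52 (SE 0.40, adjusted p = 0.964 by edgeR), and it turned to 0.18 without control replicate 2, the library with the high level, and was -0.78 without anterior replicate 1. The component comp187_c0 (2 contigs, the longer of 1109 bases) stood at 2226, 1568 and 1665 CPM in the controls and at 1337, 1563 and 1466 CPM in the anterior libraries. The groups are separated only narrowly, between control replicate 2 and anterior replicate 2. Its anterior log2 fold change was -0.32 (SE 0.15, adjusted p = 0.964 by edgeR).

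Every anterior library lay above every control at 17 members, where this held for 5.28% of all components tested, and below every control at 5, where the background was 5.64%. The higher count exceeds its background, and the lower one does not. The first count depended on the scaling. With CPM of the mapped reads without comp0_c0 it was 11 against a background of 3.69%, and with CPM of all mapped reads 8 against 3.43%. The separations were small: among the 17 the largest log2 fold change was the 0.36 of comp322_c0.

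After the posterior wound 0 members rose and 0 fell, again with 0.0281% of all components called. At an unadjusted p under 0.05 there were 2 members, both lower, where 5.96% of all components passed. DESeq2 called 0, where 0.12% of all components in its unfiltered fit were called, with 1 member at an unadjusted p under 0.05 (2.8%). The limma-voom fit also called 0 (0.0281% of all components), with 7 at an unadjusted p under 0.05 (7.26%). The smallest adjusted p of a member was 0.669. Log2 fold changes had a median of -0.07, beside -0.03 over all components, and lay from -0.43 to 0.33. They were above zero for 28 members and below for 72; with upper quartile scaling these numbers were 17 and 83, and by DESeq2 they were 39 and 61. Short members had a median of -0.05 and long ones of -0.13. The anterior and posterior values share their 3 control libraries and are not independent.

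The lowest posterior values were those of comp184_c0 and comp7_c0. The component comp184_c0 (1613 bases) stood on the TMM scale at 4230.0, 4152 and 4113 CPM in the controls and at 2966, 2463 and 3824 CPM in the posterior libraries. The groups did not overlap, although posterior replicate 3 lay near the controls. The log2 fold change was -0.43 (SE 0.16, adjusted p = 0.78 by edgeR). The anterior libraries stood at 3852, 3753 and 3710.4 CPM, also below every control. The authors' deposited table gives it a posterior fold of 0.73, the only member with an unadjusted p under 0.05 there (0.0439, adjusted p = 1).

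For comp7_c0 the posterior log2 fold change was -0.42 (SE 0.19, adjusted p = 0.78 by edgeR), with control replicate 1 at 13432 CPM and the other controls at 9520.2 and 9059.6 CPM. Its posterior libraries stood at 7579, 6694 and 9599 CPM and overlapped the controls. The smallest p of any member was that of comp416_c0 (2642 bases), named here after its values were seen. It stood at 1823, 1631 and 1555 CPM in the controls, at 1459, 1494 and 1479 CPM in the anterior libraries and at 1226, 1189 and 1341 CPM in the posterior libraries. The 3 groups did not overlap in any pair. Its posterior log2 fold change was -0.42 (SE 0.12, unadjusted p = 0.00452, adjusted p = 0.669 by edgeR).

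The highest posterior values were those of comp322_c0 and comp16_c0. For comp322_c0 the log2 fold change was 0.33 (SE 0.17, adjusted p = 0.78 by edgeR), with 1367, 1240.2 and 1609 CPM in the posterior libraries, of which replicate 2 lay below the highest control. The component comp16_c0, of 5 contigs with the longest at 1206 bases, stood at 2891, 1871 and 2027 CPM in the controls and at 2634, 2759 and 2789.9 CPM in the posterior libraries. The log2 fold change was 0.27 (SE 0.17, adjusted p = 0.78 by edgeR), and control replicate 1 was the highest of these 6 libraries.

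Posterior libraries lay above every control at 0 members, where the background was 4.36%, and below every control at 2, comp184_c0 and comp416_c0, where it was 5.7%. With CPM of the mapped reads without comp0_c0 these counts were 4 (background 6.12%) and 10 (4.57%). The wide posterior group bears on them: without posterior replicate 3 the median log2 fold change of the members was -0.27, with 43 members at an unadjusted p under 0.05, all lower, and 0 called, where 7.32% of all components in that fit passed. Without posterior replicate 2 the median was 0.06.

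**Figure D5:**
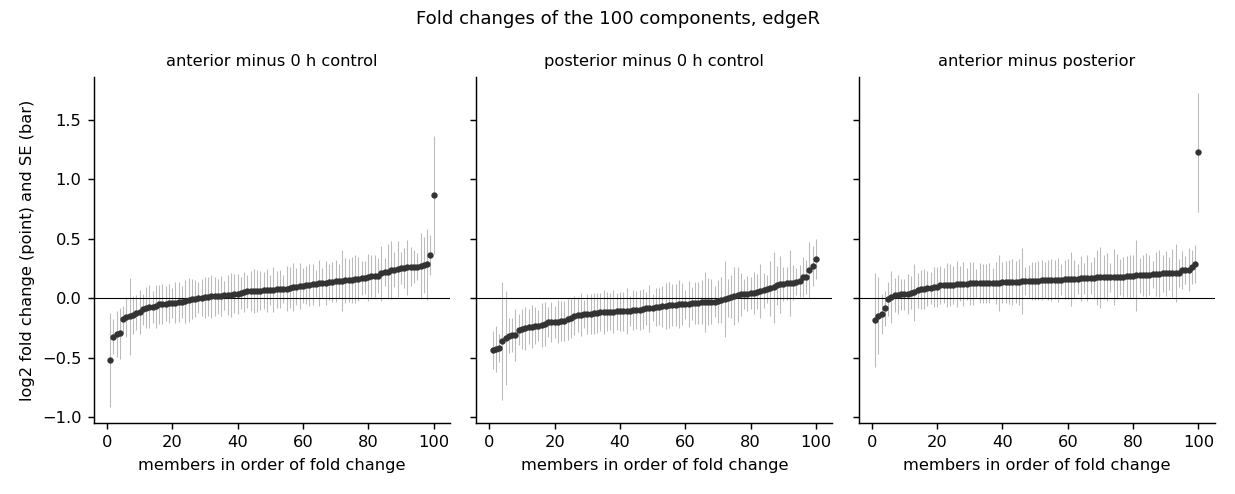
Log2 fold change by edgeR (points) with its SE (bars) for the 100 members in order of fold change (x axis), for each wound against the control and for the anterior against the posterior wound. Most members lie near zero, none passed at an adjusted p of 0.05, and comp2_c0 is the highest point of the first and last panels (0.87 and 1.23).

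The comparison of the wounds with each other asks whether the side of the cut mattered. The side and the parts lost (the head, or the tail and pharynx) cannot be told apart. No member passed edgeR's test, and 0% of all components did. At an unadjusted p under 0.05 there was 1 member, comp2_c0, where 2.72% of all components passed. DESeq2 called 0 members, where 0.0364% of all components in its unfiltered fit were called, with 0 members at that p (1.55%). The limma-voom fit called 0 members (0% of all components), with 5 at that p (2.72%). The members' log2 differences, anterior minus posterior, had a median of 0.15, beside -0.00 over all components, and were above zero for 95 of 100. The median was 0.14 for short members and 0.16 for long ones. The median rested on the posterior replicates: it was -0.00 without replicate 2, with 49 above zero, and 0.35 without replicate 3, with 65 members at an unadjusted p under 0.05 and 0 called, where 6.45% of all components passed.

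The highest differences were those of comp2_c0 and comp184_c0. For comp2_c0 the log2 difference was 1.23 (SE 0.50, adjusted p = 1.0 by edgeR), and it was 0.55 without anterior replicate 3. For comp184_c0 it was 0.29 (SE 0.16, adjusted p = 1.0 by edgeR), with posterior replicate 3 among the anterior libraries. The lowest were those of comp133_c0, at -0.18 (SE 0.40, adjusted p = 1.0 by edgeR), and comp8_c0, at -0.15 (SE 0.32, adjusted p = 1.0 by edgeR). The component comp8_c0 stood on the TMM scale at 1261, 1363 and 1305 CPM in the anterior libraries and at 1145, 1204 and 1995 CPM in the posterior libraries, and the sign turned without posterior replicate 3 (0.17). Leaving out posterior replicate 1 gave -0.29. Anterior libraries lay above every posterior library at 9 members (background 3.67%) and below at 0 (5.95%). The first count was 16 with upper quartile scaling (5.32%) and 6 with DESeq2's size factors (3.26%).

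The median SE of a member's log2 fold change was 0.17, beside 0.33 over all components tested, and it ran from 0.12 to 0.50. In the table the authors deposited, 0 members passed at an adjusted p of 0.05 for either wound. Anterior folds in the authors' deposited table ran from 0.71 to 1.85, with a median of 1.07, and posterior folds from 0.73 to 1.25, with a median of 0.93. In the deposited summed counts, the third posterior column repeats replicate 2 for the 14 members of several contigs, and whether the authors' folds used those sums was not tested. The highest of the authors' posterior folds, 1.25, was that of comp16_c0, a member of 5 contigs.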

How the data were processed

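Reads of 9 libraries were aligned with Bowtie2 2.0 and handled with SAMtools, per the submitters' processing notes (SAMtools with no version); the assembly beyond its contig names is not given here. The authors deposited, per library, the read counts of each contig beside its length (the other quantity, in bases) and the unmapped reads. The authors' deposited DESeq table gives a ratio (fold change) and p-values.

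Contigs were summed to 46724 components from 63423 contigs. In the deposited summed table, all 14 members of several contigs carry posterior replicate 2's counts in the third posterior column, so it served as an alternative only, with columns used by group. No column was left unmapped (0).

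Counts were tested with edgeR 4.0.16 (R 4.3.3): TMM scaling, filterByExpr (minimum count 10; 21322 components, between 99.5% and 99.8% of mapped reads), 1 quasi-likelihood fit of 3 groups, and Benjamini-Hochberg adjustment over all components. The SE is the log2 fold change over the square root of F. The fit was also run on simulated counts with larger changes than nearly all members showed and without library-wide shifts. That run therefore does not bear on changes of the members' size. Between replicates, chi-square over components was 5.66 to 56.2 per degree of freedom, above the 1 of sampling noise. Alternatives were other scalings, filters, DESeq2 1.42.0, limma-voom 3.58.1, a replicate block, fits of 6 libraries, each library left out, contigs not summed and the deposited sums; 2 pairs of libraries left out together, and separations between groups by other scalings, were added after seeing the data.

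Members and lists were chosen with earlier results of these data known. Named members are the first 10, those at the border, the extremes in length, level per kilobase, contigs, spread and fold change (2 per direction and comparison), and others said to be chosen after their values were seen. Markers and housekeeping lists matched 0 components, since no file names them.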

Additional observations from a re-analysis of the deposited data

How the results depend on the processing

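The counts of members called, 0 in each comparison, were 0 in all 23 alternative fits. Between 0% and 1.7% of all components were called in these fits. The 1.7% was for the posterior wound without control replicate 3 and anterior replicate 2, and without control replicate 3 alone it was 1.29%. Where few components were called at all, a count of 0 says little about the members. The smallest adjusted p of a member over these fits was 0.36 for the anterior wound, 0.083 for the posterior wound and 0.146 between the wounds; the last 2 came from leaving out control replicate 1 with posterior replicate 3, chosen after seeing the data.

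The median log2 fold change of the members moved by more than the spread between replicates in 3 cases: after the posterior wound it was -0.27 without posterior replicate 3 and -0.31 without control replicate 1 and posterior replicate 3, and between the wounds it was 0.35 without posterior replicate 3. Within that spread, leaving out other single libraries took it up to 0.057 after the posterior wound (without posterior replicate 2) and down to -0.0011 between the wounds; the anterior range was 0.04 to 0.11. Single values that changed sign were comp133_c0 after the anterior wound (0.18 without control replicate 2, the highest with 1 library left out, and -0.78 the lowest), comp0_c0 after the posterior wound (-0.13 without control replicate 1, -0.16 without posterior replicate 3 to 0.34 without control replicate 3, -0.37 without control replicate 1 and posterior replicate 3) and comp8_c0 between the wounds (-0.29 without posterior replicate 1 to 0.17 without posterior replicate 3, 0.15 also without control replicate 1). The cause was not tested. No scaling beyond totals moved the median of all components between the wounds from -0.00 to -0.11.

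With a replicate block the counts were 0 as well. The shares of all components called were 0.0234%, 0.0375% and 0% for the anterior wound, the posterior wound and the difference between them. The medians of the members were 0.08, -0.09 and 0.17 in the same order. Whether libraries of equal number shared a preparation is not in the labels and was not tested. The correlation passed 0.1 in 3 of 9 pairs of equal number, and a library's best partner had its own number in 4 of 9 cases. Over these pairs it ran from -0.24 (control and anterior replicates 1) to 0.45 (control and posterior replicates 3), the highest of all pairs. Pairs of unequal number ran from -0.48 (control replicate 3, posterior replicate 2) to 0.24 (control replicate 3, anterior replicate 1). Several of them also passed 0.1, such as control replicate 1 with posterior replicate 2 (0.22).

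The members' mean share of mapped reads, 40.3%, was 38.1% of mapped plus unmapped reads and 30.3% for the other 99 over reads without comp0_c0; with each library left out of the ranking it stayed at 40.3%. Ranking by median kept 98 of the 100, contigs not summed 94, reads per base 74, and each library left out between 97 and 100. The median within-group CV, 8.28%, was 9.63% on the TMM scale.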
